A study of Mus musculus with 4 samples.

Results

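A group of 10 genes of calcium release, storage and uptake in muscle were followed between visceral and parietal mesothelium. They were taken by gene symbol, and all 10 were found among the 19938 genes with a probe set of 1 symbol. Where a gene had several probe sets, the one with the highest mean over the 4 arrays stood for it. RNA had been hybridized to 4 one-colour arrays (Affymetrix Mouse Gene 1.0 ST), which read each transcript with a probe set of short DNA probes, 2 arrays for visceral mesothelium of the omentum and 2 for parietal mesothelium teased off the body wall muscle beneath it. All samples came from untreated adult mice of strain c57bl/6 and genotype Wt1-cre;Rosa26ReYFP, in which cells with a history of Wt1 promoter activity carry a yellow fluorescent reporter. The labels call the arrays biological replicates without naming the animals or saying whether tissue was pooled, so p-values rest on the spread of these arrays alone. The reporter marks cells of the Wt1 lineage and does not remove other cells from the RNA.

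In a skeletal muscle fibre, a voltage sensor in the tubules of the surface membrane touches the calcium release channel of the sarcoplasmic reticulum, the internal calcium store. Excitation opens that channel, calcium leaves the store and the sarcomeres contract. Pumps in the store membrane then return the calcium, helped in fast fibres by a soluble buffer in the cytosol. The pumps exist in a fast fibre form and a form shared by slow fibres and the heart. Mesothelial cells are flat epithelial cells that have no sarcomeres.

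The sequence before the start site is shown for the 3 genes with the largest differences, Pvalb, Atp2a1 and Casq1. It is also shown for Casq2, the gene related to Casq1 that the heart and slow fibres use. These genes were chosen because they were higher in parietal mesothelium by very different amounts. RefSeq sequences of GRCm38.p6 matched 6 of the 10 genes, with 7 start windows. Each window was searched over the 250 bases before the start, on both strands, for the E-box CANNTG bound by myogenic factors of the MyoD family, the M-CAT element CATTCC, the MEF2 motif and the CArG box. Capitals mark E-boxes and MEF2 matches, which do not overlap here, and bases inside any annotated transcript of the gene were left out.
Atp2a1, chr7:126463104-126463323, minus strand: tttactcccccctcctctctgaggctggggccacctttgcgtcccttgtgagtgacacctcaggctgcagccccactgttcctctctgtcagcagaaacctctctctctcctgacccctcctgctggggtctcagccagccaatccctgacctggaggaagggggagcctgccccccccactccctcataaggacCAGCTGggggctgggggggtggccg
Casq1, chr1:172219896-172220145, minus strand: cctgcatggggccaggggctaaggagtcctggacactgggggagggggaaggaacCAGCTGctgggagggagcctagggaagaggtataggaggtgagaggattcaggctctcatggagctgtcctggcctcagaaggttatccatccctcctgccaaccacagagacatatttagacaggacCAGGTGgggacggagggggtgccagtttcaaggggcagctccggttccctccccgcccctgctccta
Casq2, chr3:102086165-102086414, plus strand: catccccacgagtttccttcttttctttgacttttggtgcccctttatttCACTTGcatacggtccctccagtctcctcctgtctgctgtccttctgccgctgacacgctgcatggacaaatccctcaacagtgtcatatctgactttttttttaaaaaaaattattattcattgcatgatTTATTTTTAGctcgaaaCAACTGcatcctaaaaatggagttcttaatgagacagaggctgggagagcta
Pvalb, chr15:78206401-78206650, minus strand: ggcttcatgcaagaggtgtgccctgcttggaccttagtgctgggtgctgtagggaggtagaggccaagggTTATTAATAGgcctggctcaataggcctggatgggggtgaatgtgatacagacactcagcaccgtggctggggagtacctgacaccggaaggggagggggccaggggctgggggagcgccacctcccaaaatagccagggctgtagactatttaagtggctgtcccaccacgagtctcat

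An E-box lay in 5 of the 7 windows, against 66.2% of 32851 windows of all genes. The MEF2 motif lay in 2 of the 7, those of Casq2 and of the upstream start of Pvalb, against 1.69% of all windows. Its first base was 69 bases before the start of Casq2 and 180 bases before that of Pvalb. The M-CAT element was found in 1 window, that of Cacna1s, against 12.6% of all windows, and the CArG box in 0 of 7, against 1.47%. These matches describe the letters of the windows and are not known sites of binding.

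Of the 10 genes, 9 were higher in parietal mesothelium and 0 in visceral mesothelium, at a Benjamini-Hochberg adjusted p under 0.05 over all genes from limma and a fold of at least 1.5. Over all 19938 genes, 9.60% were called, 4.39% higher in parietal and 5.22% higher in visceral mesothelium. The 10 genes and the gene lists below were chosen with earlier results of these data known. Their counts beside those of all genes are therefore a description and not independent support. The same 9 had both parietal arrays above both visceral arrays, as did 27.4% of all genes, and 56.3% of all genes had tissues that did not overlap in either direction. The differences, given throughout as parietal minus visceral on the log2 scale, ran from -0.22 for Atp2a2 to 6.46 for Pvalb with a median of 3.27, against a median of -0.0015 over all genes. RNA of a tissue piece mixes all its cells, so more cells of a type and more RNA per cell cannot be told apart.

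**Figure D1:**
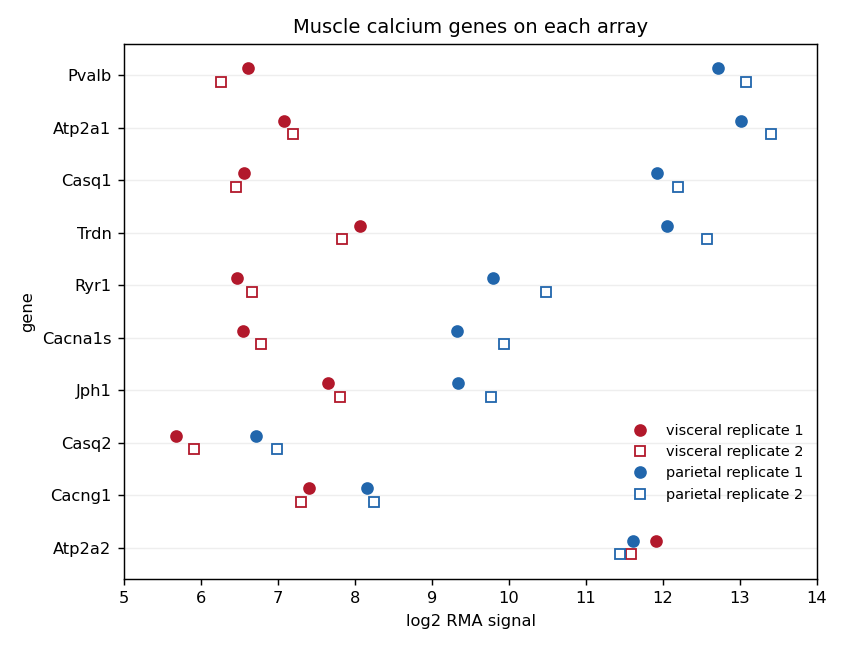
Log2 RMA signal (x axis) of the 10 calcium genes (y axis, ordered by difference) on each of the 4 arrays, filled circles for replicate 1 and open squares for replicate 2, red for visceral and blue for parietal mesothelium. The tissues are apart for 9 genes and overlap for Atp2a2, and parietal replicate 2 lies to the right of parietal replicate 1 for 9 of the 10 genes.

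The voltage sensor and the release channel stood between the extremes. Ryr1, the release channel of skeletal muscle, had log2 signals of 6.46 and 6.66 on the visceral arrays and 9.79 and 10.48 on the parietal arrays. Both parietal values were well above the visceral ones, by 3.57 (standard error 0.23) or 11.9-fold, with an adjusted p of 0.000497 from limma. Cacna1s forms the pore and the voltage sensor of the L-type calcium channel of skeletal muscle, and lay at 6.55 and 6.78 in visceral against 9.33 and 9.93 in parietal mesothelium. This was a difference of 2.97 (standard error 0.21), 7.81-fold, with an adjusted p of 0.000697 from limma. Cacng1, the gamma subunit of the same channel, was at 7.40 and 7.29 in visceral and at 8.15 and 8.24 in parietal mesothelium. Its tissues did not overlap, but its difference of 0.85 (standard error 0.09) or 1.80-fold, with an adjusted p of 0.00285 from limma, was the smallest of the 9 called genes. The 95% interval of Cacng1, 0.63 to 1.07, ended below that of Cacna1s, 2.45 to 3.48.

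The junction between the tubules and the store is held by junctophilin and triadin. Jph1, which ties the membranes together, was at 7.65 and 7.80 in visceral against 9.33 and 9.77 in parietal mesothelium, 1.82 higher with a standard error of 0.16 (adjusted p = 0.00142 from limma). Its second probe set had a difference of 1.39. Trdn, which anchors calsequestrin to the release channel, was at 8.07 and 7.83 in visceral and at 12.05 and 12.57 in parietal mesothelium. The difference was 4.36 (standard error 0.19), 20.6-fold, at an adjusted p of 0.000152 from limma.

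Trdn was read by 19 probe sets, which gave the same direction with unequal sizes. All 19 had both parietal arrays above both visceral arrays, and 18 were called higher in parietal mesothelium in a fit over all 35556 probe sets, of which 2.79% were called so. Their differences had a median of 3.79 and reached 5.15 at probe set 10362436. The exception was probe set 10362454, with signals of 4.28 and 4.47 in visceral and 4.60 and 4.69 in parietal mesothelium, 0.27 apart with a standard error of 0.11 (adjusted p = 0.239 from limma). It was dim on all 4 arrays. The probe sets share the same 4 RNA samples and are not replicates, and the exon that each one reads was not analysed here.

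**Figure D2:**
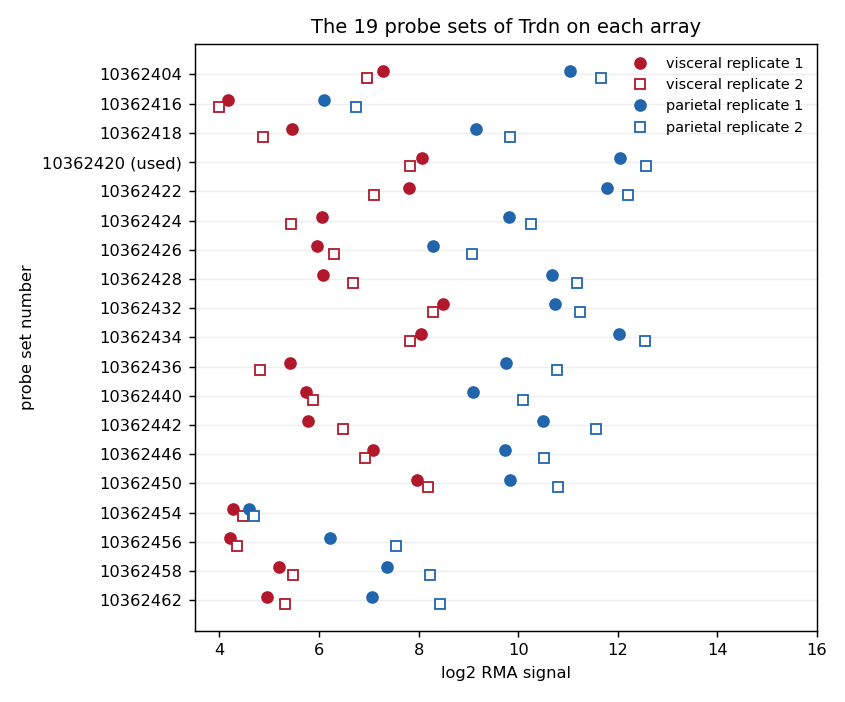
Log2 RMA signal (x axis) of the 19 probe sets of Trdn (y axis, in the order of their numbers) on each of the 4 arrays, with symbols and colours as in the plot of the 10 genes by array. At 18 probe sets the blue parietal symbols lie far to the right of the red visceral ones, and at probe set 10362454 all 4 arrays lie between 4.28 and 4.69.

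Casq1 is a calsequestrin of skeletal muscle and binds calcium inside the store. It was at 6.56 and 6.46 in visceral and at 11.92 and 12.20 in parietal mesothelium. The tissues were apart by 5.55 (standard error 0.12, adjusted p = 3.23e-05 from limma), 46.7-fold. Casq2, the calsequestrin of the heart, which slow fibres also make, was at 5.68 and 5.91 against 6.72 and 6.99. It was also higher on both parietal arrays, but by 1.06 (standard error 0.13, adjusted p = 0.00524 from limma), 2.08-fold. Casq2 was dim, with a mean of 6.325 over the arrays beside a lower quartile of 6.324 over all genes. The array processing compresses differences of dim probe sets, so its difference may be too small. Pvalb, parvalbumin, the soluble calcium buffer of fast fibres, was at 6.61 and 6.26 in visceral and at 12.71 and 13.08 in parietal mesothelium. Its difference of 6.46 (standard error 0.17) or 88.3-fold, at an adjusted p of 4.67e-05 from limma, was the largest of the group and the second largest parietal excess of all 19938 genes.

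The 2 calcium pumps did not move together. Atp2a1, the SERCA1 pump of fast fibres, was at 7.07 and 7.19 on the visceral arrays and 13.01 and 13.40 on the parietal arrays. It was higher in parietal mesothelium by 6.07 (standard error 0.14, adjusted p = 3.32e-05 from limma), 67.4-fold, the rank of 3 among the parietal excesses of all genes. Atp2a2, the SERCA2 pump, has a form in slow fibres and the heart and another that most cells use to fill the endoplasmic reticulum. The gene was read by 1 probe set, so these forms were not told apart here. Atp2a2 was at 11.91 and 11.59 in visceral and at 11.61 and 11.44 in parietal mesothelium, so the tissues overlapped. Its difference was -0.22 with a 95% interval of -0.55 to 0.11 (adjusted p = 0.363 from limma), an interval that holds no excess in parietal mesothelium above 0.11.

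Within arrays, the gap between Atp2a1 and Atp2a2 was 6.29 larger in parietal than in visceral mesothelium, with SDs over the 2 arrays of a tissue of 0.31 in visceral and 0.40 in parietal mesothelium. For Casq1 and Casq2 the gap was 4.49 larger, with SDs of 0.24 and 0.0040. Both gaps separated the tissues without overlap. The two-sided exact permutation test gave p = 0.333 for each pair, which is the smallest p that 2 arrays against 2 allow, so it says nothing on either pair. The 95% intervals of the single genes were 5.71 to 6.43 for Atp2a1 and 5.25 to 5.84 for Casq1, against 0.73 to 1.39 for Casq2.

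The rest of the calcium pathway follows by role, as counts that were not compared with the 10 genes by a test. Of 60 further calcium handling genes listed by role, 53 were measured. Of these, 13 were higher in parietal mesothelium, 2 were higher in visceral mesothelium and 38 were not called, with a median difference of 0.07. Without visceral replicate 1 or without visceral replicate 2 the parietal count was 7, and it was 14 without parietal replicate 1 and 11 without parietal replicate 2. The visceral count was 4 without visceral replicate 1, Cacna1d among them. The calls lost without a visceral array were those of Cacna1c, Jph2, Bin1, Mrln and Phka1 in both cases, of Camk2b without replicate 1 and of Hrc without replicate 2. Bin1 and Camk2b were also lost without parietal replicate 2.

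Among voltage sensor genes, 2 of 5 were called. Stac3, an adaptor that skeletal muscle needs to couple the sensor to the release channel, was at 7.48 and 7.41 in visceral and 8.45 and 8.92 in parietal mesothelium, a difference of 1.23 (adjusted p = 0.00618 from limma). Cacna1c, the pore of the L-type channel of heart and smooth muscle, differed by 1.18 (adjusted p = 0.0152), with 6.72 and 6.61 against 8.16 and 7.55. Unlike the members other than Atp2a2, Cacna1c was higher on parietal replicate 1 than on replicate 2. The beta subunit Cacnb1 and the alpha2/delta subunit Cacna2d1, which belong to the same channel complex as Cacna1s and occur outside muscle as well, differed by 0.01 and 0.03. Their 95% intervals were -0.41 to 0.43 and -0.35 to 0.41.

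The other release channels were not called, nor was any of the 7 measured genes of that role. Ryr2, the release channel of the heart, was at 6.76 and 6.80 in visceral and at 6.72 and 6.67 in parietal mesothelium. Its difference of -0.08 had a 95% interval of -0.28 to 0.12 (adjusted p = 0.588 from limma), which lies below the interval of Ryr1, 3.01 to 4.14. Ryr3, the widely expressed channel, differed by -0.03, with an interval of -0.23 to 0.17. Its signals of 6.01 and 5.95 in visceral and 5.97 and 5.93 in parietal mesothelium were dim. They lay under the lower quartile of all genes, 6.32, where a difference could go unseen. Fkbp1a and Fkbp1b, which bind and steady the release channels, differed by -0.17 and 0.03, and S100a1, a calcium sensor that acts on them, by -0.20.

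At the junction, 3 of 7 genes were called. Sypl2, mitsugumin 29 of the junctional membrane, was at 7.21 and 7.15 in visceral and at 9.17 and 9.27 in parietal mesothelium, 2.04 higher with a standard error of 0.09 (adjusted p = 0.000147 from limma). Jph2, the junctophilin of the heart that skeletal muscle also makes, differed by 0.92, and Bin1, which shapes the tubules, by 0.66. Jsrp1, a junctional protein of skeletal muscle, differed by 0.34 (adjusted p = 0.0598) and was not called.

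In the store lumen, 2 of 4 genes were called. Srl, sarcalumenin, a calcium binding protein of the muscle store, was at 7.25 and 7.06 in visceral and at 10.10 and 10.69 in parietal mesothelium. Its difference of 3.25 (standard error 0.20) or 9.48-fold, at an adjusted p of 0.000447 from limma, was the largest of the 53 genes. Hrc, a histidine-rich partner of triadin, differed by 1.13 (adjusted p = 0.00991). Calr, calreticulin, which holds calcium in the endoplasmic reticulum of cells in general, was at 12.86 and 12.69 against 12.84 and 12.61, and the tissues overlapped.

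Of the regulators of the pumps, 1 was called. Mrln, myoregulin, the SERCA inhibitor of skeletal muscle, was at 7.96 and 8.06 in visceral and at 8.62 and 9.12 in parietal mesothelium, a difference of 0.86 (adjusted p = 0.0249 from limma). Sln, sarcolipin, differed by 0.30 (adjusted p = 0.134) and Pln, phospholamban, the inhibitor best known from the heart, by -0.32 (adjusted p = 0.0529), and neither was called. Their signals were dim. Sln was at 6.09 and 6.00 in visceral and 6.24 and 6.45 in parietal mesothelium, and Pln at 6.13 and 6.11 against 5.80 and 5.81. Both of the genes called higher in visceral mesothelium were calcium pumps of other cells. Atp2a3, the SERCA3 pump of blood and epithelial cells, was at 7.72 and 8.07 against 6.94 and 7.13, a difference of -0.86 (adjusted p = 0.0134). Atp2b1, a pump of the surface membrane found in most cells, was at 11.94 and 11.90 against 11.07 and 11.17, a difference of -0.79 (adjusted p = 0.00315).

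None of the 3 further cytosolic buffers and none of the 3 genes of mitochondrial uptake was called, and of the 10 genes of surface extrusion and entry none was higher in parietal mesothelium. Calb2, calretinin, a buffer of neurons and a mesothelial marker in human tissue, differed by -0.14. Stim1, which senses the filling of the store, differed by 0.46 (adjusted p = 0.0271), below the fold of 1.5. Of 10 calcium-dependent enzymes, 5 were higher in parietal mesothelium. The largest difference was that of Mylk2, the myosin light chain kinase of skeletal muscle, with 7.00 and 6.91 in visceral and 9.74 and 10.61 in parietal mesothelium, 3.22 higher (adjusted p = 0.00133 from limma). Phkg1 and Phka1, muscle subunits of phosphorylase kinase, were 2.24 and 1.06 higher, and the kinases Camk2a and Camk2b 0.90 and 0.64 higher.

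**Figure D3:**
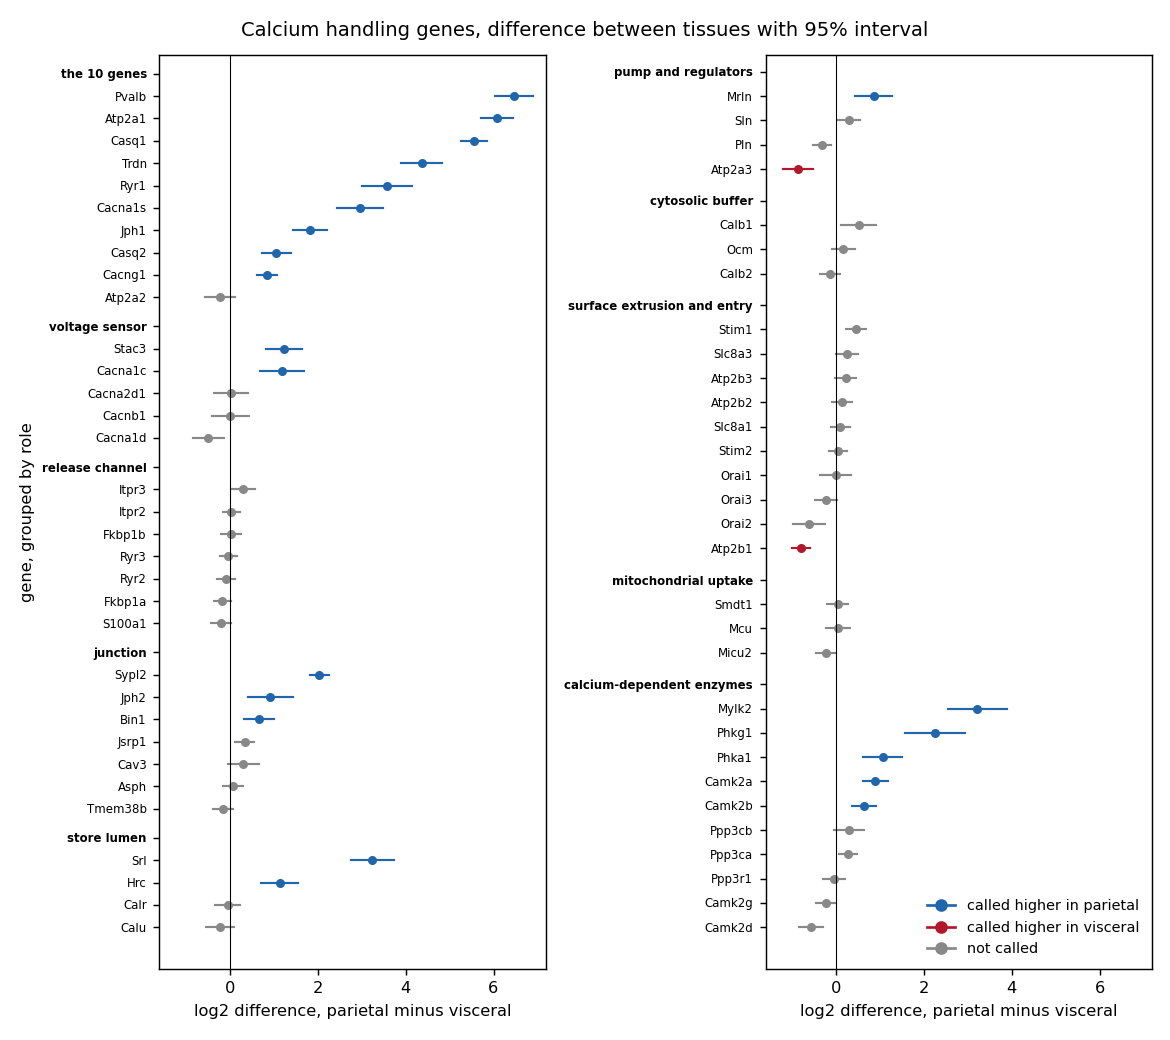
Difference between parietal and visceral mesothelium on the log2 scale (x axis) with 95% intervals from limma for the 10 calcium genes and the further calcium genes by role (y axis), blue where called higher in parietal, red where higher in visceral and grey where not called. Pvalb, Atp2a1 and Casq1 lie furthest to the right, and 38 of the 53 further genes are grey.

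The tissue label was checked against markers. Upk3b, a uroplakin of mesothelium, was at 13.59 and 13.65 in visceral and at 13.79 and 13.84 in parietal mesothelium. Msln, mesothelin, was at 10.70 and 10.82 against 12.96 and 12.83, so both were bright on all 4 arrays. Cdh1, of the same list, was at 6.92 and 7.06 against 6.83 and 7.01, below the median of all genes, 7.73. Bright signals were not confined to mesothelial markers. Dcn, of the fibroblast list, was at 14.53 and 14.50 against 14.35 and 14.32. The list of 12 mesothelial markers had a median difference of 0.70, with 5 called towards the parietal side and 1, Wt1, towards the visceral side. Genes of muscle fibres were higher on the parietal arrays beside the calcium genes. Of 29 fibre markers, 28 were called higher in parietal mesothelium, with a median difference of 3.89. Their mean log2 signal was 7.00 and 7.03 on the visceral arrays and 10.48 and 10.92 on the parietal arrays. The array reports no detection call, so a low signal does not show that a transcript was absent, and the part of muscle fibres in the differences of the calcium genes was not tested.

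All 10 fast fibre markers were higher in parietal mesothelium, by a median of 4.72. The largest was Myl1, a fast myosin light chain, at 6.17 and 6.15 in visceral and 13.42 and 13.45 in parietal mesothelium. Among the 7 slow fibre markers 6 were higher, by a median over the list of 1.59 and at most 2.41, that of Myl2, the slow and heart regulatory light chain. Myh7b was not called. All 12 markers shared by both fibre types were higher, by a median of 4.33, among them Acta1, skeletal actin, by 5.48. The fast and slow medians were not compared by a test.

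Of 9 heart muscle markers 1 was called, Myh6, by 0.65, and the median was 0.11. The heart hormone Nppa differed by 0.09. Of 7 satellite cell and myogenic genes 3 were higher, Myf6, the myogenic factor of mature fibres, by 2.78, Des by 1.49 and Chrna1 by 1.00. Pax7, which marks satellite cells, differed by 0.02. Of 10 smooth muscle markers 6 were higher in visceral mesothelium and 1 in parietal mesothelium, and Myh11, smooth muscle myosin, differed by -2.67. All 10 macrophage markers were higher in visceral mesothelium, with a median of -1.66. Of 8 endothelial markers 2 and of 7 fibroblast markers 3 were higher in parietal mesothelium, with 1 fibroblast marker higher in visceral mesothelium, and 0 of 7 adipocyte and 0 of 4 nerve markers were called.

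**Figure D4:**
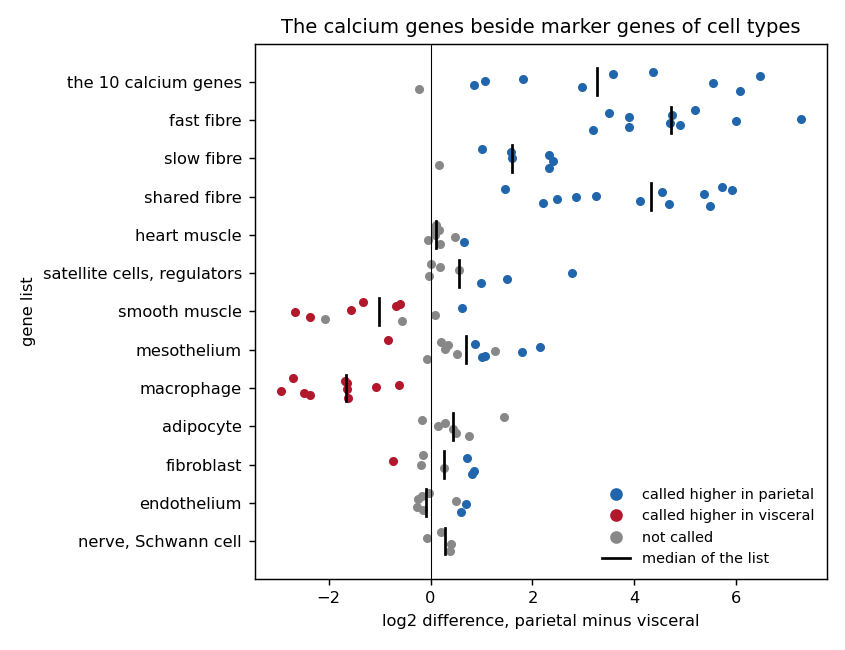
Difference between parietal and visceral mesothelium on the log2 scale (x axis) for the 10 calcium genes and the 12 marker lists (y axis), 1 point per gene, blue where called higher in parietal, red where higher in visceral and grey where not called, with a black bar at the median of each list. The bar of the fast fibre markers stands at 4.72, that of the slow fibre markers at 1.59 and that of the macrophage markers at -1.66, against 3.27 for the calcium genes.

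The replicates of parietal mesothelium were not equal for these genes. Parietal replicate 2 was above replicate 1 for 9 of the 10 genes, by a median of 0.38 over the group, whereas this held for 50.06% of all genes with a median of 0.00014. Ryr1 had the widest gap, 0.69, followed by Cacna1s with 0.61 and Trdn with 0.52. The gap reached 0.25 for 8 of the 10 genes and for 6.034% of all genes. In visceral mesothelium replicate 2 was above replicate 1 for 5 of the 10 genes, and by at least 0.25 for 0 of them, against 7.599% of all genes. Fibre markers showed the same order, with parietal replicate 2 higher for 27 of 29. With any 1 of the 4 arrays left out, the 9 called genes stayed higher in parietal mesothelium. The difference of Ryr1 then ran from 3.23 to 3.92 and that of Cacng1 from 0.80 to 0.91.

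**Figure D5:**
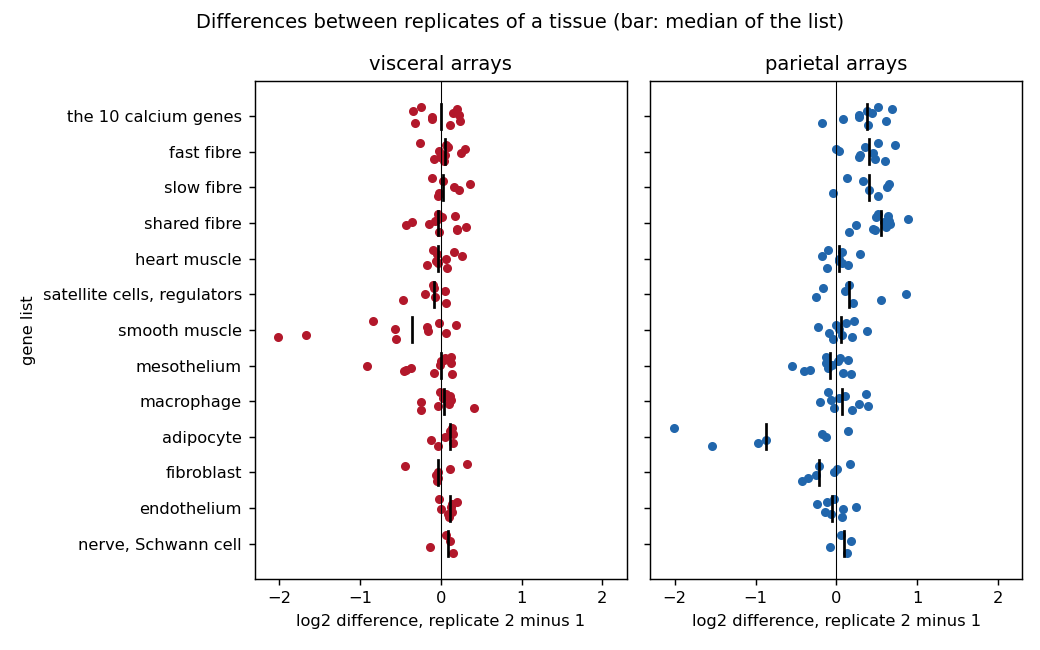
Replicate 2 minus replicate 1 on the log2 scale (x axis) for the 10 calcium genes and the 12 marker lists (y axis), 1 point per gene with a black bar at the median of each list, the visceral arrays in the left panel and the parietal arrays in the right panel. On the parietal arrays the calcium genes and the fibre markers lie mostly right of 0, the bar of the calcium genes standing at 0.38 and that of the adipocyte markers at -0.87.

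For each of the 10 genes the 3 genes outside all lists with the most similar signals were sought, by the distance between the 4 log2 values after centring each gene on its mean. With 2 tissues, this measure mostly reflects the size of the difference. Angptl1, Car3 and Xirp2 were nearest to Atp2a1, Casq1 and Pvalb alike, and Angptl1, at a difference of 5.78, lay 0.50, 0.35 and 0.76 from them. Trdn lay 0.28 from Asb12, Cacna1s lay 0.17 from Musk, and Ryr1 lay 0.099 from Npy1r and 0.11 from Tmem182. Jph1 was nearest to Tuba8, Casq2 to Crispld2, Cacng1 to Ssx2ip and Atp2a2 to Armc1.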

How the data were processed

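RNA of 2 visceral and 2 parietal samples was hybridized to Affymetrix Mouse Gene 1.0 ST arrays. The deposited values are log2 signals that the authors obtained by RMA (background correction, quantile normalization and summary over probes) in Partek 6.6; RMA compresses differences of dim probe sets. No depth exists for arrays, and their number limits the precision. Array medians ran from 7.38 to 7.41. Of 35556 probe sets, 21789 carried 1 gene symbol in the platform annotation, 1621 several and 12146 none, and 21698 matched RefSeq.

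Each gene was given its probe set of highest mean, leaving 19938 genes, and the 2 tissues were set against each other in a linear model (limma 3.58.1, R 4.3.3), with Benjamini-Hochberg adjustment over all genes; a call needed a fold of 1.5 or more and an adjusted p under 0.05. The code was tested on simulated data. Promoter windows came from RefSeq, GRCm38.p6. The 10 genes and all gene lists were chosen with earlier results of these data known. Named were the 10 genes, any listed calcium gene, up to 4 genes per marker list with the lowest adjusted p, genes needed to check a label, and the 3 nearest genes of each of the 10. Of 60 further calcium genes, 7 were not analysed here. Alternatives were other summaries of probe sets, thresholds, priors, normalizations, signal filters, a replicate block, the methods' t-test (their ANOVA, which between 2 groups is that test) and each array left out; the counts of marker genes and of all genes under them were added after seeing the data.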

Additional observations from a re-analysis of the deposited data

How the results depend on the processing

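Each of the 10 genes kept its direction under every one of 20 alternatives that measured it, and 15 alternatives called all 9. Most alternatives change only the threshold, prior, test, filter or block and leave the difference itself as it was. A direction could change only with another normalization, with the mean of several probe sets or with an array left out. Among genes with 1 probe set only, which leaves out Jph1 and Trdn, 7 of 8 measured members were called higher in parietal mesothelium. Of all genes in that set, 838 were called so and 996 higher in visceral mesothelium. Among genes above the median signal, which leaves out Casq2, 8 of 9 members were called higher in parietal mesothelium. Of all genes in that set, 655 were called so and 747 higher in visceral mesothelium. Both sets hold fewer genes than the 19938 of the main fit, so the share of 4.39% given above is not theirs. Calls were lost at a fold of at least 2 (8 called, without Cacng1), with limma's treat against a fold of 1.5 (7 called, without Cacng1 and Casq2), and 0 were called with the methods' t-test after adjustment, against 9 before it. With that adjusted test the counts were 0 for the further calcium genes in both directions and 0 for fibre markers (28 before adjustment). Over all genes it also called 0, against 706 higher in parietal and 876 in visceral mesothelium before adjustment. The test was run here on 1 probe set per gene, over 19938 genes. The paper reports probes that passed its own adjusted ANOVA, so these counts do not repeat that result. The reason was not tested. The further calcium genes higher in parietal mesothelium numbered 7 at an adjusted p under 0.01, 8 at a fold of at least 2, 4 with treat and 8 with the methods' t-test before adjustment, and 7 to 14 with 1 array left out. Those higher in visceral mesothelium numbered 1, 0 and 0 at the first 3 of these settings and 2 to 4 with 1 array left out. Over all genes, 457 and 521 were called higher in parietal and in visceral mesothelium at a fold of at least 2, and 331 and 393 with treat.

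With 1 array left out, a tissue keeps a lone array that is assumed to vary like the other tissue, and among the 36 further calcium genes that were followed singly 6, none of them called, changed sign. Their differences ran from -0.0618 to 0.00037 for Ryr3, -0.0307 to 0.0944 for Fkbp1b, -0.23 to 0.24 for Cacnb1, -0.18 to 0.25 for Cacna2d1, -0.164 to 0.0632 for Calr and -0.0768 to 0.15 for Mcu. Same-numbered arrays deviated together with a correlation of 0.356 over all genes, but the labels do not tie the numbers to animals. With the replicate number as a block 9 members, 13 and 3 further calcium genes, 28 fibre markers and 921 and 1087 of all genes were called higher in parietal and in visceral mesothelium. The cause of these changes was not tested.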

Other observations

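Part of the markers of fat cells were uneven between the parietal arrays, in the order opposite to the muscle calcium genes. Over 7 adipocyte markers parietal replicate 2 minus replicate 1 had a median of -0.87 on the log2 scale. Replicate 2 was above replicate 1 for 1 of the 7, Pparg (7.047 and 7.195 on parietal replicates 1 and 2). Plin1 (7.83 and 7.65) and Lep (6.18 and 6.06) differed little. Retn and Adipoq had the widest gaps of the list. Retn, resistin, was at 6.95 and 7.08 in visceral mesothelium, at 9.46 on parietal replicate 1 and at 7.46 on parietal replicate 2. Adipoq, adiponectin, named after its values were seen, was at 5.99 and 5.96 in visceral mesothelium, at 7.50 on parietal replicate 1 and at 5.96 on replicate 2. Cacna1c, at 8.16 on parietal replicate 1 and 7.55 on replicate 2, followed that order and not the order of the muscle calcium genes. The order was not particular to fat cell markers. Parietal replicate 2 was above replicate 1 for 2 of 7 fibroblast markers, with a median of -0.22. It was so for 5 of 12 mesothelial markers, with a median of -0.08.

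The visceral arrays were uneven for part of the smooth muscle genes, with a median of -0.36 for replicate 2 minus replicate 1 over 10 markers. Replicate 2 was above replicate 1 for 2 of the 10, Smtn (10.95 and 11.15 on visceral replicates 1 and 2) and Lmod1 (7.15 and 7.21). Synpo2 (9.06 and 9.04) and Myh11 (9.81 and 9.65) differed little. Cnn1, calponin, named after its values were seen, was at 10.08 and 8.42 on the visceral arrays and at 6.84 and 6.91 on the parietal arrays.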
